A study of Rattus norvegicus with 9 samples.

Results

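Igf1, Igf2, Igf1r, Igfbp2, Igfbp3, Igfbp4, Igfbp5, Igfbp6 and Igfbp7 encode 2 insulin-like growth factors, 1 receptor and 6 binding proteins of these factors. They were chosen by gene name as a family with known roles, with earlier results of these data already known. They are 9 of the 32043 genes in the deposited table. Bulk RNA sequencing was performed on knee cartilage of male Sprague–Dawley rats, bought at 8 weeks of age, in 9 libraries, 3 in each of 3 groups. In the control group, the knee joint capsule was opened and sutured and nothing more was done. In the model group, knee osteoarthritis (KOA) was induced by the modified Hulth method, a surgery that makes the knee unstable by the loss of 2 ligaments and a meniscus, and the rats were then made to exercise each day. The SYD group underwent the same KOA procedure and then received an extract of Shengyu decoction, a herbal formula, by gavage for 4 weeks. The study's results name SYD-H, its highest dose, as the treated group that was sequenced, while its methods mention sequencing of control and model only, and the labels of these libraries give no dose. Their titles say syd, their library names in the labels and in the table are CXTB with the replicate number, and the labels do not explain that name. The study also had a celecoxib group, abbreviated CXB, listed in neither place among the sequenced groups. All rats were sampled 8 weeks after surgery. Model against control addressed what the KOA procedure, surgery and exercise together, changed relative to knees that were only opened, and SYD against model what the extract changed in KOA knees.

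IGF-1 and IGF-2 are small secreted peptides that signal through the receptor encoded by Igf1r, a tyrosine kinase that feeds the PI3K, AKT and MAPK routes. In cartilage, IGF-1 is known as an anabolic factor that promotes chondrocyte survival and the synthesis of aggrecan and collagen II. The binding proteins hold most of the extracellular peptide and release it when proteases cut them, so they can limit or prolong its action, and IGFBP-7 binds these peptides with low affinity. Stanniocalcins inhibit the pappalysins, the proteases that cut IGFBP-4 and IGFBP-5.

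The libraries differed in ways that bear on every value below. From the deposited FPKM (fragments per unit of gene length and of an effective library size), whole reads could be recovered, 14914121 to 19510537 per library. Mitochondrial genes took 4.05 to 4.86% of the reads in control, 39.5 to 90.7% in model and 23.7 to 72.7% in SYD. In model libraries 1 and 3 and SYD library 3, they took 90.7%, 81.3% and 72.7%, and the reads left on all other genes were 1744769 in model library 1 and 17373645 in control library 3. Rescaling FPKM to TPM, which gives every library the same total with its mitochondrial genes in it, moved the median log2 fold change over the tested genes from −0.23 to −2.60 in model against control, from 0.22 to 1.22 in SYD against model and from 0 to −1.31 in SYD against control. Values on the TPM scale are therefore also given relative to that median. The 9 chondrocyte markers summed to 10624, 442 and 5514 FPKM in control, 150 to 761 in model and 142 to 1134 in SYD, so control library 2 was low for its label. Col2a1, the main collagen of cartilage, was at 8323, 348 and 4468 FPKM in control and at 39.0 to 606 in model. All 9 libraries also held markers of bone marrow and bone, with Hba-a1, a hemoglobin gene, averaging 11616 FPKM and Bglap, the osteocalcin gene, 1557 FPKM over the libraries. In bulk samples, fewer cells of a type and less RNA per cell cannot be told apart.

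The stretches before the transcript starts are printed for the 4 genes that were called in a comparison, to show how unlike they are in base composition. They are the 250 bases before the start in RefSeq (build GRCr8, which is not the build of the deposited positions), read 5′ to 3′ on the gene's strand. Igf1 is at chr7:24172282-24172531 on the plus strand, Igfbp3 at chr14:86277945-86278194 on the minus strand, Igfbp4 at chr10:84491221-84491470 on the plus strand and Igfbp7 at chr14:31091486-31091735 on the plus strand. The Igf1 and Igfbp7 starts used are not the outermost of these genes, whose edges in RefSeq are at 24169608 and 31091681, so that all 250 bases of the Igf1 window and the last 55 of the Igfbp7 window lie within the gene. Capitals mark the TATAAA motif, the GGGCGG motif and the CCAAT motif, each searched on both strands, and none of these 3 overlaps another here.
Igf1: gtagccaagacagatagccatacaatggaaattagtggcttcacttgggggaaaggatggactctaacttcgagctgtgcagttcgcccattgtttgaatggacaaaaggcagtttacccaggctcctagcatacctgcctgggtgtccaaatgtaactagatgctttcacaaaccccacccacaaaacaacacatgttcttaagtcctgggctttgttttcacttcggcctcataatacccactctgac
Igfbp3: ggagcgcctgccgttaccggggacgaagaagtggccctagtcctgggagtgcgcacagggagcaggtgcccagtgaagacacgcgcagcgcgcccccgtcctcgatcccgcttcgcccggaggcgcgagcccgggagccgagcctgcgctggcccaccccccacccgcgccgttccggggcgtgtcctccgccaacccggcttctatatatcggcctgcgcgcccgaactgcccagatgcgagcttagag
Igfbp4: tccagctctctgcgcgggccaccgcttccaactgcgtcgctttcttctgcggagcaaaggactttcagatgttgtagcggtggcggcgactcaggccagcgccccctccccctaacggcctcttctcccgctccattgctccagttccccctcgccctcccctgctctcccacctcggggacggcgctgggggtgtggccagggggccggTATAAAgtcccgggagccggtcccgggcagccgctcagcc
Igfbp7: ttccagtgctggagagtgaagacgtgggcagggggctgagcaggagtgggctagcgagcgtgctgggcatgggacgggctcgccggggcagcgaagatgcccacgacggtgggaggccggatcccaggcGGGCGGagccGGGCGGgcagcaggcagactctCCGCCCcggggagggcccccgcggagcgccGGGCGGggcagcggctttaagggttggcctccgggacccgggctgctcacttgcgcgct
The Igf1 window held 46.8% G or C and 3 CpG, against 71.6% and 31 CpG for Igfbp3, 68.8% and 21 CpG for Igfbp4, and 74.4% and 26 CpG for Igfbp7. The medians over 33469 such windows were 51.2% and 5 CpG. The Igfbp4 window had 1 TATAAA, starting 40 bases before the start, a motif that 12.9% of all windows hold. In the Igfbp7 window, GGGCGG stood 4 times, at 121, 111, 89 and 59 bases, where 30.5% of all windows have at least 1. CCAAT, found in 34.0% of all windows, was in none of the 9 members' windows. These matches describe letters and mark no known site, and all 9 members had at least 1 window in RefSeq.

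Igfbp7 had the highest mean FPKM of the 9 genes in each group (59.3 ± 27.3 in control, 154 ± 134 in model and 224 ± 60.1 in SYD; SD, n = 3). In the control group, Igfbp4 and Igfbp5 came next at 42.0 ± 6.28 and 34.3 ± 7.13 FPKM (SD, n = 3), and the values of these 3 genes overlapped in the order of the levels. Their lowest library lay above all control values of the other 6 genes. Igfbp6, Igf1, Igf2 and Igfbp3 followed at means of 8.28, 4.20, 4.09 and 2.74 FPKM, each overlapping the next, and then came Igf1r at 1.14 and Igfbp2 at 0.110 FPKM. Igf1r did not overlap Igfbp3, its neighbour in this order, but in control library 2 Igf2 (0.506 FPKM) and Igfbp6 (0.0563 FPKM) lay below all control values of Igf1r. In the model group, Igfbp7 and Igfbp4 led, and Igfbp6, Igfbp5, Igf1 and Igfbp3 overlapped at means of 44.4, 36.5, 35.8 and 25.3 FPKM. The first place of Igfbp7 there rested on model library 2 (305 FPKM). In model libraries 1 and 3, Igfbp4 (98.8 and 164 FPKM) lay above Igfbp7 (49.6 and 106 FPKM). In the SYD group, every Igfbp7 value lay above every value of Igfbp4, which averaged 78.2 ± 20.4 FPKM (SD, n = 3).

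**Figure D1:**
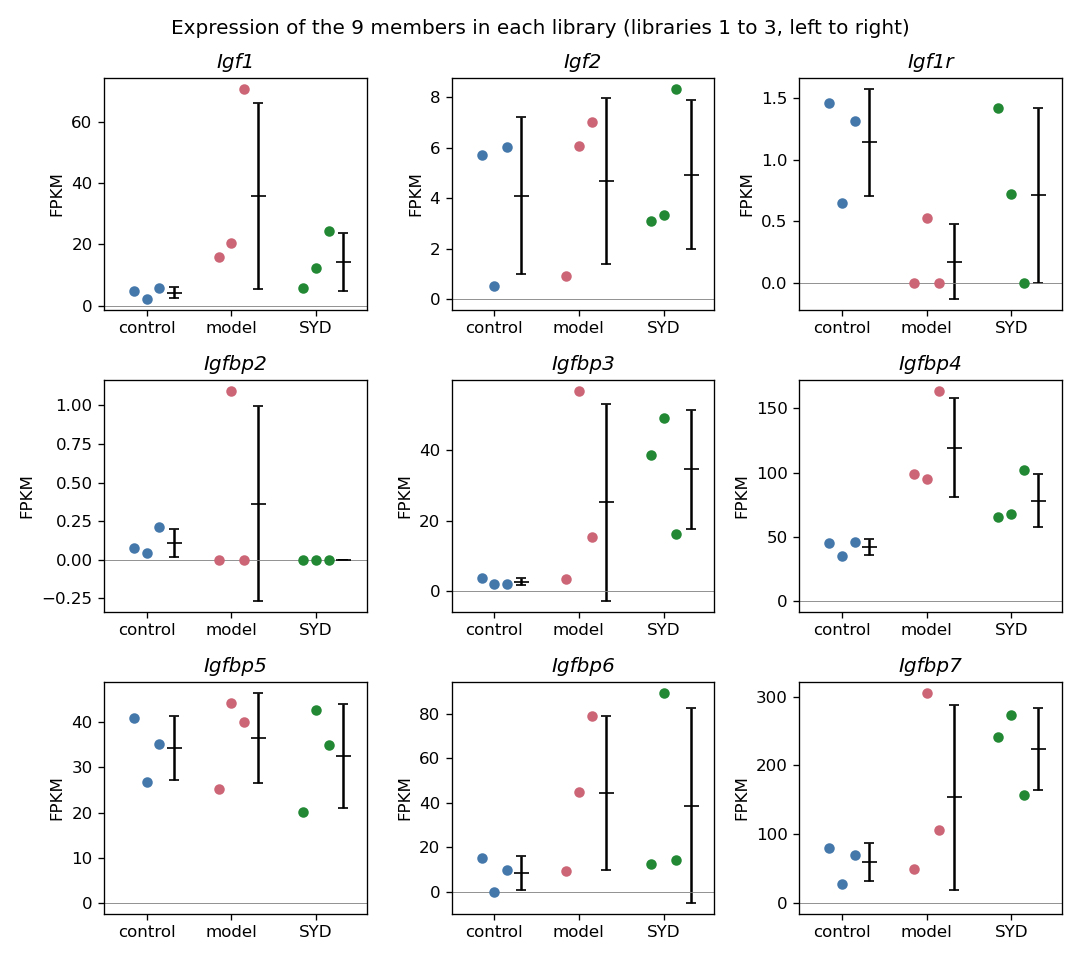
FPKM of the 9 genes in each library, with libraries 1 to 3 of each group from left to right and, beside them, the group mean with its SD (n = 3, drawn symmetrically, so that it can reach below 0). On the FPKM scale, the model libraries lie above the control libraries for Igf1 and Igfbp4, the SYD libraries lie above them for Igf1, Igfbp3, Igfbp4 and Igfbp7, and the scales differ between panels.

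Igf1, the gene of the ligand IGF-1 (ENSRNOG00000004517, chromosome 7, 22282930 to 22359296, plus strand in the deposited table), was at 4.87, 2.14 and 5.60 FPKM in control. It was at 16.0, 20.6 and 70.8 FPKM in model and at 5.67, 12.4 and 24.5 FPKM in SYD. Every model and SYD library lay above every control library, the lowest SYD library (5.67 FPKM) only just above the highest control (5.60 FPKM), while model and SYD overlapped. The recovered reads behind these values ranged from 260 in model library 1 to 2428 in model library 2. The mean was 8.51 times the control mean in the model group (35.8 ± 30.4 against 4.20 ± 1.83 FPKM, SD, n = 3) and 3.37 times in the SYD group (14.2 ± 9.53 FPKM).

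A gene was called when its unadjusted p was under 0.05 and its log2 fold change of (FPKM + 1) was over 1 in size, the criteria of the study, in limma fitted to all 13898 genes with a mean of at least 0.5 FPKM. Igf1 was called higher in the model group, with a log2 fold change of 2.59 (SE 0.62, limma adjusted p = 0.0903), and on the TPM scale it stood 2.35 above the median of all genes, with a raw value of −0.25. Without model library 3, the highest, its log2 fold change was 1.95 and it was still called. In SYD against model, its log2 fold change was −1.18 (SE 0.71, limma adjusted p = 0.723), which missed the threshold, and was −0.54 without model library 3 and −0.69 without SYD library 1. Against control, the SYD group was called higher at 1.41 (SE 0.55, limma adjusted p = 0.133), a call lost when any 1 control library, SYD library 2 or SYD library 3 was left out (0.93 to 1.61 in those fits), with no filter, with all 9 libraries in one fit, and on the TPM scale. The comparisons share libraries and are not independent of one another.

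Igf2, the gene of the second ligand (ENSRNOG00000020369, chromosome 1, 197814410 to 197823018, minus strand), had overlapping values in the 3 groups. Its values were 5.72, 0.506 and 6.05 FPKM in control, 0.904, 6.09 and 7.02 in model and 3.09, 3.35 and 8.34 in SYD. One library each of control and model, control 2 and model 1, was far below the others. The log2 fold change was 0.20 between model and control (SE 0.85), 0.21 between SYD and model (SE 0.69) and 0.41 between SYD and control (SE 0.70), with limma adjusted p of 0.920, 0.933 and 0.709, and its sign changed with the libraries left out.

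Because both ligands are read from the same library, their ratio does not depend on how libraries were scaled to each other. Igf1 made up 46.0, 80.9 and 48.1% of the summed FPKM of the 2 ligands in control, 94.7, 77.2 and 91.0% in model and 64.8, 78.7 and 74.6% in SYD. The model group averaged 87.6% ± 9.23 against 58.3% ± 19.6 in control (SD, n = 3), and control library 2, in which both ligands were low, reached into the range of the other groups.

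Igf1r, the receptor gene (ENSRNOG00000014187, chromosome 1, 121550743 to 121831777, plus strand), was the least abundant of the 8 tested members in each group. It was at 1.46, 0.650 and 1.32 FPKM in control, 0, 0.525 and 0 in model and 1.42, 0.722 and 0 in SYD. Model libraries 1 and 3 and SYD library 3, the libraries with the largest mitochondrial shares, were those with no read on it. A floor of 3 reads is worth 0.176, 0.0964 and 0.0556 FPKM in these libraries, so levels below these could not be detected there, and the floor covers counting error only. All model values lay below all control values (exact permutation test, two-sided, p = 0.1, the smallest that 3 libraries against 3 allow). The log2 fold change was −0.87 in model against control (SE 0.28, limma adjusted p = 0.166), too small in size for a call, on a scale where adding 1 compresses such low values. With a pseudocount of 0.1 the gene was called at −2.68 and with voom at −4.46. With quantile normalization it was at −0.24 and was not called. On the TPM scale it was called at a raw value of −2.35 (limma adjusted p = 0.0117), which was 0.25 above the median of all genes on that scale. In SYD against model and SYD against control, the log2 fold changes were 0.48 (SE 0.39) and −0.39 (SE 0.36), neither called by limma (adjusted p = 0.723 and 0.477), and ranged from 0.19 to 0.83 and from −0.69 to −0.05 with 1 library left out.

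Igfbp4, the gene of a binding protein known to inhibit IGF action until it is cut (ENSRNOG00000010635, chromosome 10, 83989591 to 84007225, plus strand), was at 45.1, 34.7 and 46.1 FPKM in control. Its values were 98.8, 95.3 and 164 FPKM in model and 65.3, 67.5 and 102 FPKM in SYD. Both the model and the SYD group lay above the control group in every library, and SYD library 3 was the only SYD library in the range of the model group. Igfbp4 was called higher in the model group with a log2 fold change of 1.45 (SE 0.29, limma adjusted p = 0.0632), and on the TPM scale it stood 0.88 above the median of all genes, with a raw value of −1.71. The call held with each library left out in turn, at 1.20 to 1.59. SYD against model gave −0.59 (SE 0.33, limma adjusted p = 0.723), with −0.34 without model library 3, and SYD differed from control by 0.86 (SE 0.22, limma adjusted p = 0.0504), the latter under the size needed for a call. On the TPM scale the latter was −0.67, which was 0.65 above the median of all genes.

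Igfbp3, the gene of the main carrier of IGFs in serum (ENSRNOG00000061910, chromosome 14, 82056347 to 82064083, minus strand), was at 3.89, 2.17 and 2.17 FPKM in control. It was at 3.53, 56.9 and 15.4 FPKM in model and at 38.7, 49.2 and 16.2 FPKM in SYD. Model library 1 had the level of the controls, and the other model libraries and all SYD libraries lay above them. SYD against control gave a log2 fold change of 3.15 (SE 0.44, limma adjusted p = 0.0125), the largest of the 8 tested members in any comparison, and the gene stood 3.28 above the median of all genes on the TPM scale, where it was not called. Without any 1 library, this value was 2.83 to 3.61. Model against control gave 2.15 with a wide error (SE 0.90, limma adjusted p = 0.266), reached 3.07 and a call without model library 1, and fell to 1.24 without model library 2. It was also called with a filter at a mean of 1 FPKM, with quantile normalization (2.38), with voom (3.53) and with all 9 libraries in one fit. SYD against model gave 1.00 (SE 0.94, limma adjusted p = 0.745), with 0.07 without model library 1 and 1.91 without model library 2.

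Igfbp7, whose protein is abundant around blood vessels (ENSRNOG00000002050, chromosome 14, 30737164 to 30797314, plus strand), was at 79.8, 28.4 and 69.8 FPKM in control. It was at 49.6, 305 and 106 FPKM in model and at 242, 273 and 157 FPKM in SYD. All SYD values lay above all control values, and the model libraries spread across both groups. The SYD group was called higher than control with a log2 fold change of 1.99 (SE 0.44, limma adjusted p = 0.0351), and 1.77 above the median of all genes on the TPM scale, where the call was lost. Model against control gave 1.10 (SE 0.73, limma adjusted p = 0.470) and SYD against model 0.89 (SE 0.66, limma adjusted p = 0.723). Without model library 2, the one at 305 FPKM, the former value was 0.42 and the latter was 1.57 and was called. Without model library 1, the values were 1.71 and 0.27, neither called, and without control library 2 the former was 0.65.

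Igfbp5, a binding protein gene strongly expressed by skeletal cells (ENSRNOG00000017206, chromosome 9, 74448382 to 74465156, minus strand), was at 41.0, 26.8 and 35.1 FPKM in control. It was at 25.3, 44.3 and 39.9 FPKM in model and at 20.1, 42.7 and 34.9 FPKM in SYD. The 3 groups overlapped and their means lay between 32.6 and 36.5 FPKM, with log2 fold changes of 0.07 (SE 0.30), −0.19 (SE 0.38) and −0.12 (SE 0.31) in model against control, SYD against model and SYD against control (limma adjusted p = 0.919, 0.872 and 0.820). On the TPM scale it stood 0.43 below the median of all genes in model against control and 0.34 below it in SYD against control, and the raw values of −3.02 and −1.65 were both calls.

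Igfbp2 lies 5444 bases from Igfbp5, the genes pointing towards each other (ENSRNOG00000016957, chromosome 9, 74415546 to 74442937, plus strand), and encodes a binding protein known from fetal tissue. Its FPKM was 0.0760, 0.0413 and 0.212 in control, 0, 1.09 and 0 in model and 0 in all 3 SYD libraries. These came from 3, 2 and 11 reads in the controls and 38 in model library 2, so the gene was close to the limit of detection and failed the filter on low values. Igfbp6, whose protein prefers IGF-2 (ENSRNOG00000010977, chromosome 7, 133276234 to 133280966, plus strand), was at 15.1, 0.0563 and 9.69 FPKM in control. In the model libraries it was at 9.39, 44.8 and 78.9 FPKM, and in SYD at 12.6, 89.5 and 14.3 FPKM. Control library 2, with 2 reads, and a single high SYD library widened the spread, and the log2 fold changes of 2.57 (SE 1.22), −0.34 (SE 1.00) and 2.23 (SE 1.25) in model against control, SYD against model and SYD against control were not called (limma adjusted p = 0.323, 0.920 and 0.261). Without control library 2, the values against control were 1.36 for model and 1.02 for SYD, and without model library 1 the gene was called in model against control at 3.42. Without SYD library 2, SYD against control gave 1.35.

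Counted together, limma called 2 of the 8 tested members in model against control, Igf1 and Igfbp4, both raised, where 14.7% of all tested genes were called and 3.55% were called and raised. Of the same 8, 3 had an unadjusted p under 0.05, against 19.2% of all tested genes, and 0 an adjusted p under 0.05, against 2.59%. An adjusted p under 0.05 was reached by Igfbp4 with voom, with no filter, with all 9 libraries in one fit and without model library 2, by Igf1r in the latter fit and with TPM, and by Igfbp5, lowered, with TPM. The model libraries lay above all control libraries for 2 members (8.65% of all tested genes) and below them for 1 member (20.0%). In SYD against model, limma called 0 members, where 4.15% of all tested genes were called, and 0 had an unadjusted p under 0.05 with limma or voom (5.26% of all tested genes with limma), while 0.00% of all tested genes had an adjusted p under 0.05. In SYD against control, 3 members were called, Igf1, Igfbp3 and Igfbp7, all raised, where 16.5% of all tested genes were called and 7.25% were called and raised. Of these, Igfbp3 and Igfbp7 had an adjusted p under 0.05 in limma, as did 17.3% of all tested genes, 7.75% with a rise. An adjusted p under 0.05 was kept in 11 of 16 alternatives for Igfbp3 and in 6 of 16 for Igfbp7, and was lost for both, among other settings, with TPM, with all 9 libraries in one fit and without control library 2 or 3. In the same comparison, 4 members lay above control in every library (20.3% of all tested genes). The median log2 fold change of the 8 tested members was 1.28 in model against control, 0.01 in SYD against model and 1.14 in SYD against control, beside −0.23, 0.22 and 0 for all tested genes.

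**Figure D2:**
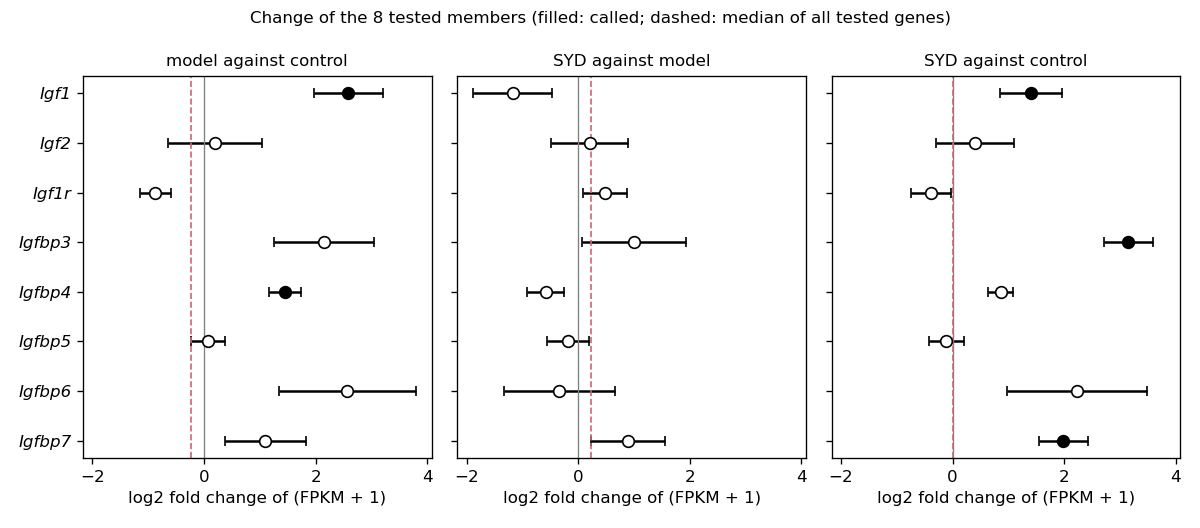
Log2 fold change of (FPKM + 1) with its standard error for the 8 tested members in each comparison, with called genes filled and the median of all tested genes dashed. Igf1 at 2.59 and Igfbp4 at 1.45 are filled in model against control, no gene is filled in SYD against model, and Igf1, Igfbp3 and Igfbp7 are filled in SYD against control, calls that were lost on the TPM scale, where Igf1 and Igfbp4 were at −0.25 and −1.71 in model against control, 2.35 and 0.88 above the median of all tested genes there.

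The mix of binding protein transcripts within a library does not depend on the scaling between libraries. Igfbp5 made up 22.2, 29.1 and 21.5% of the summed FPKM of the 6 binding proteins in control, 13.6, 8.09 and 9.89% in model and 5.30, 8.18 and 10.8% in SYD. Each model and SYD library was below each control library, as they were for 38.7% of all tested genes when set against the same sum. The shares of Igfbp3, Igfbp4, Igfbp6 and Igfbp7 overlapped between control and model. The Igfbp3 share was 1.33 to 2.36% in control and 5.01 to 10.2% in SYD, with no overlap. Igfbp7 held 48.4 to 63.9% of the sum in SYD, 30.8 to 43.2% in control and 26.2 to 55.7% in model, and Igfbp4 held 52.9% in model library 1 and 17.4% in model library 2. The sum itself averaged 147 ± 48.5 FPKM in control, 379 ± 182 in model and 408 ± 102 in SYD (SD, n = 3). Per unit of ligand FPKM it was 17.5, 34.8 and 14.0 in control, 11.0, 20.6 and 5.19 in model and 43.2, 33.1 and 9.87 in SYD, and the 3 groups overlapped in this ratio.

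**Figure D3:**
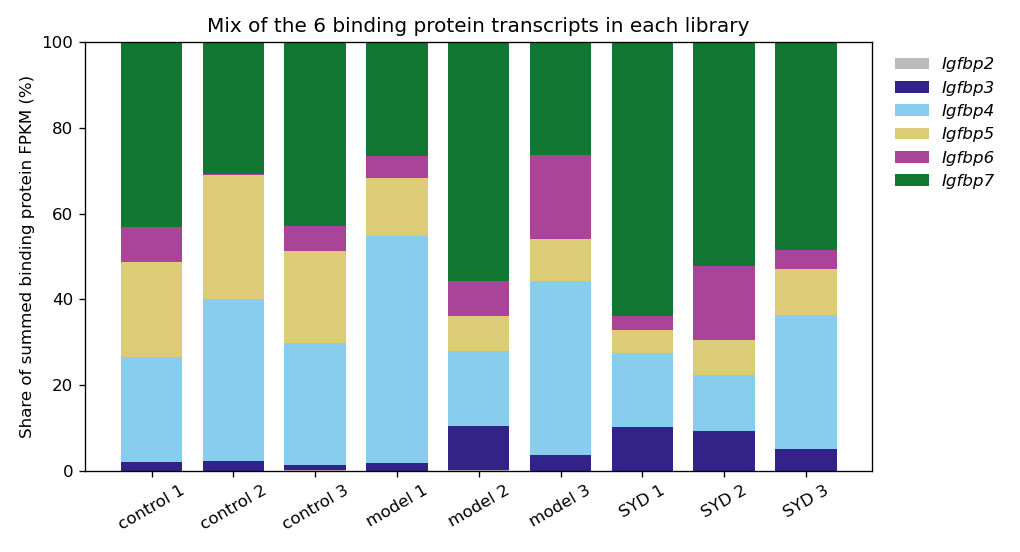
Share of each binding protein in the summed FPKM of the 6 binding proteins, in percent, 1 bar per library. The Igfbp5 band covers 21.5 to 29.1% of the control bars and 5.30 to 13.6% of the model and SYD bars, and Igfbp7 is the widest band in every SYD bar.

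Set against Igfbp5 in the same library, a scale free of library factors, Igf1, Igfbp3, Igfbp4 and Igfbp6 were higher in every model and SYD library than in every control library, 4 of the 7 other tested members, against 3.93% of all other tested genes. The ratio of Igf1 to Igfbp5 was 0.119, 0.0799 and 0.160 in control, 0.631, 0.464 and 1.77 in model and 0.282, 0.290 and 0.701 in SYD. For Igfbp4, the ratio was 1.10, 1.30 and 1.31 in control, 3.90, 2.15 and 4.10 in model and 3.25, 1.58 and 2.91 in SYD. Neither ratio overlapped between control and the other groups, and each overlapped between model and SYD. The ratio of Igfbp3 to Igfbp5 was 0.0619 to 0.0949 in control, 0.139, 1.28 and 0.387 in model and 1.92, 1.15 and 0.464 in SYD, again with no overlap between control and the other groups. Igfbp6 separated by little, with 0.369, 0.00210 and 0.276 in control, 0.371 to 1.98 in model and 0.629, 2.10 and 0.409 in SYD. For Igfbp7 it was 1.95, 1.06 and 1.99 in control, 1.96, 6.89 and 2.65 in model and 12.0, 6.39 and 4.48 in SYD, so that the SYD libraries lay above the controls, as for 16.4% of all other tested genes, and the model libraries did not separate. A ratio within a library shows unequal change and not which of the pair changed. These ratios were not among the planned results, and all of them share Igfbp5 as denominator, so they are not independent of one another.

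**Figure D4:**
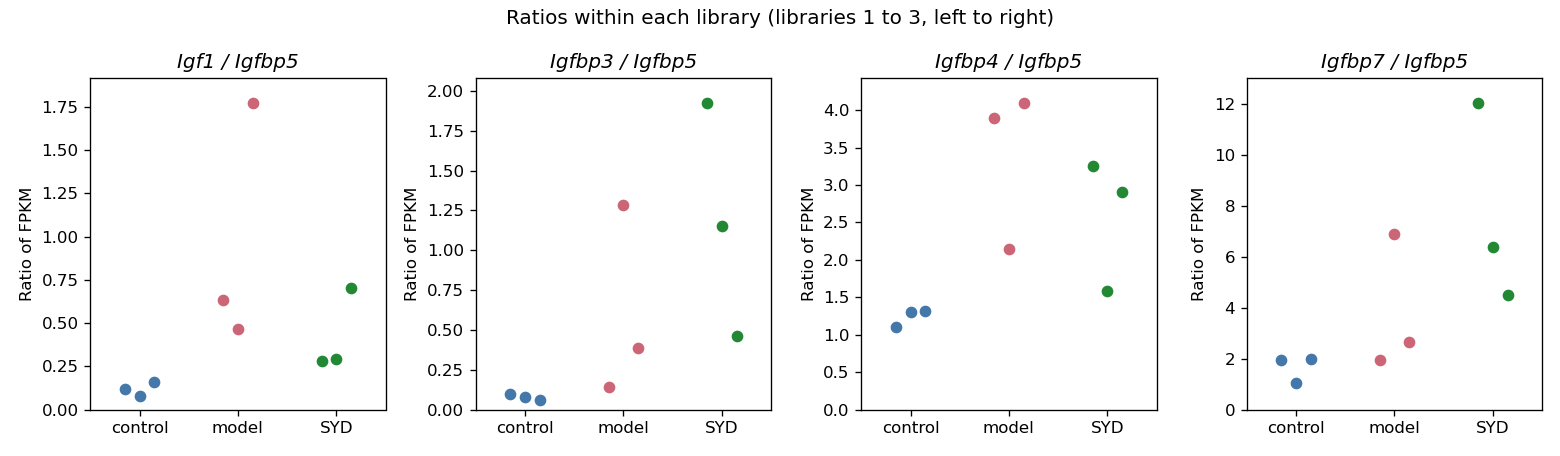
Ratio of the FPKM of Igf1, Igfbp3, Igfbp4 and Igfbp7 to that of Igfbp5 in each library, with libraries 1 to 3 of each group from left to right and every axis starting at 0. The control points of Igf1 (up to 0.160), Igfbp3 (up to 0.0949) and Igfbp4 (up to 1.31) lie below all model and SYD points.

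Of 41 other genes of the IGF pathway, 33 were tested. In model against control, limma called 1 of them raised and 0 lowered (3.03% called, against 14.7% of all tested genes), with a median log2 fold change of −0.13. The raised gene was Stc1, which encodes stanniocalcin-1 (ENSRNOG00000015075). Stc1 was at 0.411 and 0.292 FPKM in control libraries 1 and 3 and lower in control library 2 (9 reads), and was at 6.21, 4.46 and 3.58 in model and 3.33, 2.68 and 0.928 in SYD. All model and SYD values lay above all control values, and the model values came from 55, 287 and 58 reads. Its log2 fold change between model and control was 2.16 (SE 0.34, limma adjusted p = 0.0406), 1.99 to 2.32 with 1 library left out and 3.36 above the median of all genes on the TPM scale, where it was not called. Its targets by background, the pappalysin genes Pappa and Pappa2, failed the filter, with at most 1.14 FPKM for Pappa and 0.583 for Pappa2 in any library. Pappa2 had 112, 6 and 110 reads in control and 0 in all model and SYD libraries, where 3 reads would be worth 0.0177 FPKM in model library 2, 0.0176 in SYD library 1 and 0.0165 in SYD library 2, and 0.129, 0.0705 and 0.0407 FPKM in model libraries 1 and 3 and SYD library 3.

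In SYD against model, 1 pathway gene was called raised and 0 lowered (3.03% called, against 4.15% of all tested genes), Stc2, which encodes stanniocalcin-2 (ENSRNOG00000020729). It was at 5.66 and 4.68 FPKM in control libraries 1 and 3 and lower in control library 2 (60 reads), and was at 2.70, 0.255 and 0 in model and 5.92, 2.27 and 7.27 in SYD, with overlap between model and SYD, and its log2 fold change of 1.78 had an SE of 0.68 (limma adjusted p = 0.723). The call was lost in 8 of 16 alternatives, among them leaving out model library 2, model library 3, SYD library 1 or SYD library 3 (1.41 to 1.64 in those fits).

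In SYD against control, 3 pathway genes were called raised and 2 lowered (15.2% called, against 16.5% of all tested genes), and these 5, apart from Stc1, are named after their values were seen. Kazald1, an IGFBP-related gene active in bone, was at 12.3, 7.87 and 15.1 FPKM in control and 21.8, 29.9 and 39.5 in SYD (log2 fold change 1.30, SE 0.30, limma adjusted p = 0.0395), and its TPM value of −0.17 was 1.15 above the median of all genes on that scale. Htra1, a secreted serine protease with an IGFBP-like domain, went from 42.0, 13.2 and 40.7 FPKM to 119, 139 and 71.4 FPKM (log2 fold change 1.86, SE 0.51, limma adjusted p = 0.0569). Stc1 changed by 1.31 (SE 0.33, limma adjusted p = 0.0461). The lowered genes were Foxo3, a transcription factor that AKT inhibits, at −1.52 (SE 0.27, limma adjusted p = 0.0202), and Pdpk1, the kinase that activates AKT, at −1.52 (SE 0.52, limma adjusted p = 0.0978). Foxo3 was at 14.3, 21.7 and 16.9 FPKM in control and 6.93, 6.35 and 3.56 in SYD. Pdpk1 was at 5.16, 4.76 and 5.62 FPKM in control and 3.14, 1.41 and 0 in SYD, and its call was lost in 9 of 16 alternatives: without any 1 control library, SYD library 2 or SYD library 3, with a pseudocount of 0.1 or 0.01, with TPM without mitochondrial genes and with all 9 libraries in one fit. The last also lost the call of Kazald1. On the TPM scale, the calls of Kazald1, Htra1 and Stc1 did not hold.

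**Figure D5:**
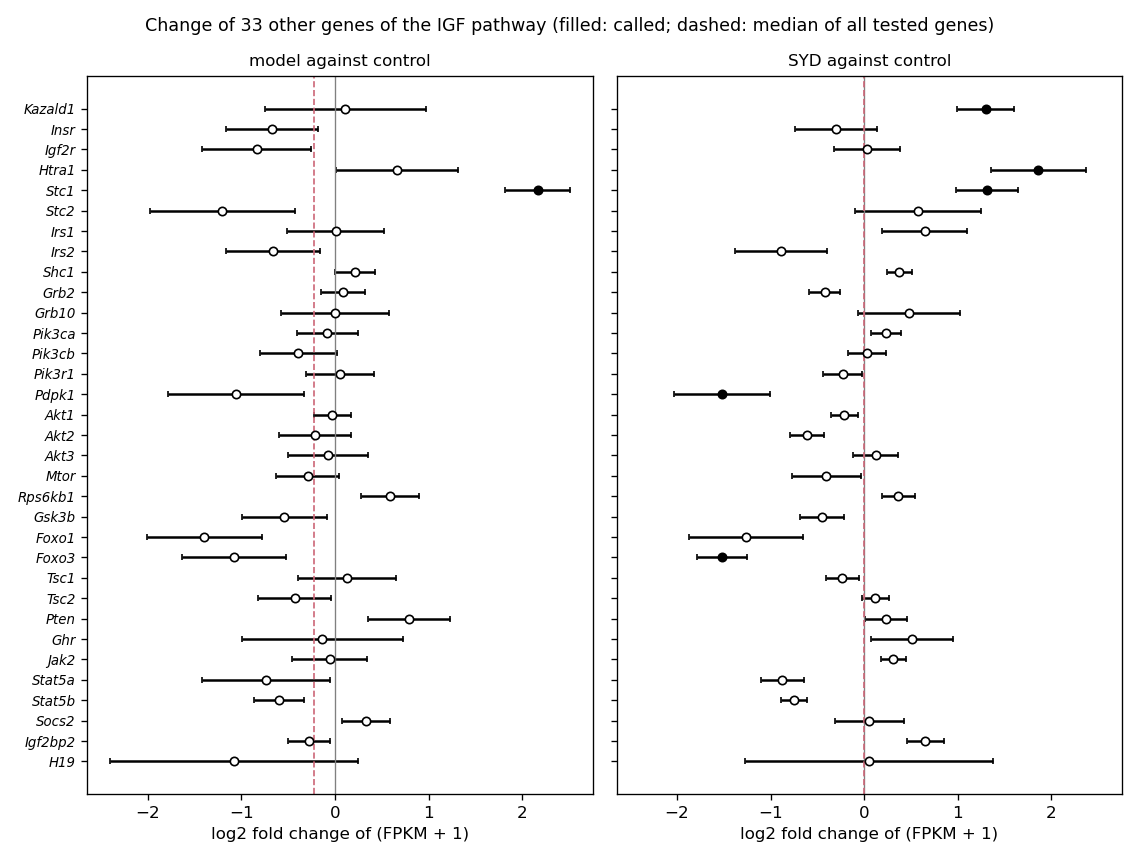
Log2 fold change of (FPKM + 1) with its standard error for the 33 tested genes of the pathway list, with called genes filled and the median of all tested genes dashed. Stc1 is the filled gene in model against control at 2.16, and Kazald1, Htra1, Stc1, Foxo3 and Pdpk1 are filled in SYD against control, of which Kazald1 was at −0.17 on the TPM scale, 1.15 above the median of all tested genes there.

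Markers of other cell types moved with some members, and their part in the results was not tested. Of all tested genes, 11.2% were called lowered in model against control and 9.22% in SYD against control. Called and raised were 3.55% in model against control, 3.62% in SYD against model and 7.25% in SYD against control. The 7 synovial fibroblast markers summed to 72.2 to 258 FPKM in control, 147, 1105 and 399 in model and 901, 1723 and 377 in SYD, and 4 of 7 were called raised in SYD against control and 0 in model against control. The 6 endothelial markers summed to 29.4 to 39.0 FPKM in control, 19.8, 200 and 41.3 in model and 79.8, 111 and 88.9 in SYD, with 4 of 6 called raised in SYD against control and 1 in model against control. Model library 2, the highest model library for Igfbp3 and Igfbp7, was also the highest for both lists, and SYD library 2 was the highest of the SYD libraries for both lists, Igfbp3 and Igfbp7. In model library 1, which had the fewest non-mitochondrial reads, the endothelial genes Pecam1, Tek and Kdr were listed at 0, Vwf was at 0.424 FPKM, Cdh5 at 2.80 FPKM and Emcn at 16.6 FPKM, the latter above all control values. The 7 macrophage markers, cells known to make IGF-1, summed to 112 to 146 FPKM in control, 199, 105 and 65.1 in model and 243, 170 and 126 in SYD, with 0 of 7 called in either comparison with control and 1 of 7 called raised in SYD against model. In model library 3, which had the highest Igf1, this sum was the lowest of the 9 libraries. Of the 9 chondrocyte markers, 6 were called lowered in model against control and 0 in SYD against control, and 1 was called raised in SYD against model. Their median log2 fold change was −3.50 in model against control, −1.74 in SYD against control and 1.46 in SYD against model. None of them had a limma adjusted p under 0.05 in any comparison. The 5 erythroid markers summed to 6296 to 15542 FPKM in control, 37699, 291 and 42163 in model and 1289 to 13405 in SYD, with 0 of 5 called between model and control and 2 of 5 called lowered in SYD against control. The 5 B cell markers summed to 249 to 332 FPKM in control, 3.95 to 37.4 in model and 6.60 to 29.5 in SYD, and 4 of 5 were called lowered in model against control and 5 of 5 in SYD against control. The 6 neutrophil markers summed to 2923 to 5604 FPKM in control, 68.5 to 7777 in model and 521 to 3363 in SYD, with 3 of 6 and 4 of 6 called lowered in the same comparisons and 1 of 6 raised in SYD against model. The 7 osteoblast markers summed to 1043 to 1545 FPKM in control, 556 to 2536 in model and 2628 to 3901 in SYD, with 2 of 7 called raised in SYD against control and 1 of 7 lowered in model against control. The 5 adipocyte markers summed to 8.28 to 23.3 FPKM in control, 47.9, 8.88 and 69.3 in model and 27.7, 16.3 and 127 in SYD, with 1 of the 4 tested, Fabp4, called raised in SYD against control. The sum was highest in library 3 of model and of SYD, as Igf1 was. Fabp4 made up 62.0 FPKM of it in model library 3, and Adipoq was at 8.14, 0.204 and 0.910 FPKM in model and 0.0760, 1.40 and 58.2 FPKM in SYD. The skeletal muscle markers, of which 5 of 7 were in the table, summed to 18.3 to 268 FPKM in control, 107, 15.8 and 473 in model and 22.4, 762 and 284 in SYD, with 0 called in any comparison.

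The genes whose levels ran most like those of Igf1 over the 9 libraries, by Pearson's r of log2(FPKM + 1) among all tested genes, were Bloc1s1 (0.981), an unnamed locus (0.978) and Igfbp4 (0.971). For Igf2 they were Pitx1 (0.926), Arhgap35 (0.913) and Mir568 (0.904). For Igf1r they included Elovl6 (0.987) and Efna4 (0.986), both of which were, like Igf1r, at 0 in model libraries 1 and 3 and SYD library 3. These values describe 9 libraries that differ in group, depth and mitochondrial share, and carry no test.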

How the data were processed

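RNA from rat knee cartilage was analysed in 9 libraries, with groups taken from the sample labels. The labels' RNA extraction text mentions retina, and the submitters' processing notes name HISAT2 (version 2.0.5) and a human genome build although the genes are of rat. The counting tool and the rat build and annotation are not given in the sources used here. The authors deposited FPKM per gene. In each library, 100% of the values checked were whole multiples of the worth of 1 read, to within 0.1 read. The most abundant genes were not part of this check. A total of 13898 genes with a mean of at least 0.5 FPKM were tested with limma (version 3.58.1, R 4.3.3, lmFit and eBayes with a trend, two-sided) on log2(FPKM + 1), 6 libraries per comparison, with Benjamini-Hochberg adjustment over all of them. This scale understates changes of low genes. The p-values set each group difference against the spread between these libraries, estimated with information from all tested genes. Single values were compared by exact permutation. The code was tested on simulated data. Members, lists and thresholds were chosen with earlier results of these data known. Named were all members, called genes of the pathway list in model against control or SYD against model, markers with the highest means, and the 3 genes most like each of Igf1, Igf2 and Igf1r, of which 1 is not reported here. Alternatives were other pseudocounts and filters, TPM with and without mitochondrial genes, quantile normalization, voom on the recovered reads, all libraries in one fit, a replicate block and leaving out each library. For the pathway genes these were added after seeing the data.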

Additional observations from a re-analysis of the deposited data

How the results depend on the processing

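Of 381 member values refitted under 16 alternatives in 3 comparisons, 320 kept direction and side of the threshold and 34 changed sign. Calls lost numbered 12 and calls gained 18, sign changes included, and the cause was not tested. With voom, 5 members were called in model against control (Igf1, Igf1r, Igfbp3, Igfbp4 and Igfbp6). Voom called 3351 of all 13898 tested genes there, against 2046 in the main fit. With TPM, 2 were called in model against control, Igf1r and Igfbp5, both lowered, in place of Igf1 and Igfbp4, and 1 was called in SYD against control, Igfbp5, lowered. TPM called 10445 of all 13898 tested genes in model against control and 6029 in SYD against control. Leaving out each library gave 2 to 4 calls in model against control (4 without model replicate 1, where Igfbp3 and Igfbp6 joined), 0 to 1 in SYD against model (Igfbp7 without model replicate 2) and 2 to 3 in SYD against control. Of all 13898 tested genes, these fits called 1309 to 3344 in model against control, with 2704 without model replicate 1. In SYD against model they called 315 to 2495, the highest without model replicate 2, against 577 in the main fit. In SYD against control they called 1788 to 2603. The replicate block gave 2, 1 and 3 calls, the 1 being Igf1 in SYD against model, and called 1668, 526 and 2259 of all tested genes. Replicate numbers did not pair the samples, as libraries of one number correlated at −0.196, −0.267 and −0.0805 (model and control), −0.0691, 0.194 and 0.136 (SYD and model), and 0.0680, −0.194 and −0.136 (SYD and control), and not every library correlated best with its own number.

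Log2 fold changes that changed sign with TPM were, in model against control, −0.25 (Igf1), −1.94 (Igf2), −0.35 (Igfbp3), −1.71 (Igfbp4), −3.02 (Igfbp5) and −2.04 (Igfbp7). In SYD against model they were 0.32 (Igf1), 1.04 (Igfbp4), 1.37 (Igfbp5) and 1.15 (Igfbp6), and in SYD against control −0.80 (Igf2), −0.67 (Igfbp4) and −0.17 (Kazald1). Without mitochondrial genes in the TPM, Igf1 stayed at 2.59 and Igfbp4 at 1.24 in model against control, and Igfbp5 turned to −0.16 there and to 0.0078 in SYD against model. Quantile normalization turned Igfbp5 to −0.035 in model against control, and Igf2 to −0.11 and Igf1r to −0.056 in SYD against model. Voom turned Igfbp5 to −0.021 in model against control and Igf2 to −0.45 in SYD against model.

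With 1 library left out, sign changes were seen in Igf2, Igfbp5 and Igfbp6, none of them called. Igf2 then ranged from −0.53 to 0.86 in model against control (−0.09 and −0.18 without model replicates 2 and 3), from −0.46 to 0.58 in SYD against model (−0.18 without SYD replicate 3) and from −0.33 to 0.79 in SYD against control. Igfbp5 ranged from −0.090 to 0.31 (−0.08 and −0.01 without model replicates 2 and 3), from −0.42 to 0.12 and from −0.34 to 0.19 (0.02 without control replicate 1). Igfbp6 ranged from −1.22 to 0.29 in SYD against model (0.15 and 0.06 without SYD replicates 1 and 3).

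The lowered share of all calls was 75.9% with the deposited scale, 99.6% with TPM and 53.7% with quantile normalization in model against control, 12.8%, 1.89% and 39.1% in SYD against model, and 56.0%, 97.9% and 53.8% in SYD against control. With 3 libraries per group and 1744769 reads outside mitochondrial genes in the shallowest, changes of Igf1r, Igfbp2 and Pappa could not be measured well, and the mitochondrial share cannot be told apart from the group in either comparison with control (model and SYD overlapped in it).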

Other observations

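The growth hormone route, which drives Igf1 transcription in liver through JAK2 and STAT5B, was on the pathway list, and its genes are named here after their values were seen. Stat5b was at 9.39, 11.9 and 10.9 FPKM in control, 6.17, 5.66 and 8.65 in model and 6.08, 5.98 and 5.83 in SYD. All model and SYD values lay below all control values, with log2 fold changes of −0.60 (SE 0.27, limma adjusted p = 0.304) and −0.75 (SE 0.14, limma adjusted p = 0.0220), both under the size needed for a call. The model libraries lay below all controls for 20.0% of all tested genes and the SYD libraries for 22.2%. Stat5a was at 6.56, 9.40 and 6.65 FPKM in control, 13.8, 1.82 and 2.12 in model and 3.11, 4.89 and 3.05 in SYD. Its model values overlapped the controls, and its SYD values lay below them (log2 fold change −0.87, SE 0.23, limma adjusted p = 0.0528). Ghr, the growth hormone receptor gene, was at 4.07 and 4.39 FPKM in control libraries 1 and 3 and lower in library 2, and was at 0.648, 1.33 and 12.5 FPKM in model and 3.90, 3.23 and 8.47 in SYD, and was highest in model library 3, as Igf1 was. Jak2 was at 5.66, 5.11 and 6.17 FPKM in control, 3.52, 9.69 and 4.37 in model and 7.47, 6.97 and 7.21 in SYD. All SYD values lay above all control values, as for 20.3% of all tested genes (log2 fold change 0.31, SE 0.13, limma adjusted p = 0.165). Socs2, a STAT5 target that limits the route, was at 6.09, 4.91 and 5.98 FPKM in control, 6.97, 6.87 and 8.27 in model and 11.2, 4.08 and 4.26 in SYD. All model values lay above all control values, as for 8.65% of all tested genes (log2 fold change 0.33, SE 0.26, limma adjusted p = 0.547). None of these genes was called in any comparison.

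The other receptors of the family overlapped between the groups. Igf2r, which clears IGF-2, was at 11.7, 5.16 and 8.69 FPKM in control, 3.12, 10.2 and 1.89 in model and 7.71, 12.1 and 5.98 in SYD. Insr, the insulin receptor gene, was at 1.98, 1.45 and 2.04 FPKM in control, 0, 2.36 and 0.640 in model and 3.07, 1.36 and 0.241 in SYD. Igfbp1, a liver binding protein gene, was listed at 0 in all 9 libraries.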
